A study of Mus musculus with 12 samples.

Results

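The nuclear receptor genes examined here are 46 genes fixed by name and matched by their GENCODE mouse names to the Ensembl identifiers of the count files, out of 55416 genes in all. Every listed name was found, and the genes fall into 18 families by sequence relationship. RNA-seq was done on inner hair cells (IHCs) and outer hair cells (OHCs), the sensory cells of the organ of Corti, sorted from mouse cochleae at postnatal day 0 (P0). There were 6 IHC libraries (IHC1 to IHC6) and 6 OHC libraries (OHC1 to OHC6), each from a pool of sorted cells, and all are labelled as wild type. Both came from 1 cross that brought together Atoh1-GFP (a reporter of the hair cell transcription factor Atoh1), Insm1-GFP-Cre and a tdTomato gene at the R26 locus. IHCs were sorted by GFP and OHCs by GFP together with tdTomato, so the OHC label depends on Cre made from Insm1. The question addressed by the comparison was which genes differ in RNA level between these cell types at birth. The study describes the pools as biological replicates, each drawn from several newborn mice of both sexes. Whether they came from separate litters, or whether IHC and OHC pools shared mice, is not given in the sources used here. The p-values measure the spread between these pools, taken as unpaired.

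Nuclear receptors are transcription factors that bind short DNA elements through zinc fingers, and many of them are switched by a small lipid-soluble ligand such as thyroid hormone, retinoic acid or a steroid. Several bind DNA as a pair with a retinoid X receptor, and they recruit corepressors or coactivators depending on the ligand. In the cochlea, thyroid hormone and its receptor encoded by Thrb are known to be needed for the onset of hearing, and Esrrb and Nr2f1 are known from inherited or experimental loss of function to matter for inner ear development.

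The members share a zinc finger DNA-binding domain, and the first finger holds the P-box, 3 residues that set which DNA half-site the receptor prefers. The bases that code for this stretch are shown because they are what the 6 members that differed between IHCs and OHCs have in common, or differ in, independently of their levels. The 24 bases were read from the canonical transcripts of GENCODE vM39 on GRCm39, from the codon of the third zinc-binding cysteine of the first finger, 5′ to 3′ on the coding strand, with the 3 P-box codons in capitals. The progesterone receptor gene Pgr is added as a receptor of the steroid class.
Thrb: tgtGAAGGCtgcaagGGCttcttt
Rora: tgtGAAGGCtgcaagGGCtttttc
Rorb: tgtGAAGGCtgcaagGGAttcttc
Nr1d1: tgtGAGGGCtgcaagGGCtttttt
Nr4a3: tgcGAGGGCtgcaagGGCttcttc
Esr2: tgtGAAGGAtgtaagGCCtttttt
Pgr: tgtGGGAGCtgcaagGTCttcttt

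Thrb and Rora had the same capital bases, Rorb, Nr1d1 and Nr4a3 each differed from Thrb at 1 of them, Esr2 at 2 and Pgr at 4. Of the 43 members with this stretch read, 27 coded for the same 3 residues as Thrb. Among members with enough counts to be tested, these were 17 of 25, and among those that passed the test, 5 of 6, with Esr2 the exception. The windows of Thrb (chr14:4461119-4467082, minus strand), Rora (chr9:69255485-69269029, plus strand), Rorb (chr19:18960839-18965409, minus strand) and Nr1d1 (chr11:98662162-98662277, minus strand) were interrupted by an intron. Those of Nr4a3 (chr4:48052175-48052198, plus strand) and Esr2 (chr12:76212239-76212262, minus strand) lay within exon 3, and that of Pgr (chr9:8903709-8903732, plus strand) within exon 2. All of these are coding exons. Nr0b1 and Nr0b2, which encode receptors without this DNA-binding domain, gave no match, and Nr3c1 was not read here.

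Reads counted on genes ranged from 31490204 to 44017309 among the IHC libraries and from 29564827 to 39121988 among the OHC libraries. IHC1 stood apart, with 56.9% of its counts on ribosomal RNA and 11871781 counts left outside the 20 most abundant genes. Calls of members that were lost without IHC1 are named below. The 4 IHC markers Otof, Slc17a8, Fgf8 and Tbx2 were all IHC-enriched, and 3 of 4 OHC markers (Insm1, Bcl11b, Neurod6) were OHC-enriched. The other OHC marker, Ikzf2, was not called, and its fitted change was lower in OHCs. All 9 markers of hair cells had counts in both groups. Of these 9, 1 was IHC-enriched and 1 OHC-enriched, and 8 had an unadjusted p under 0.05 by edgeR. Of 9 endothelial markers, 8 were OHC-enriched. Their summed level was 0.302 to 5.08 CPM (counts on a gene relative to the normalised library size) in IHC pools, where Cldn5, Ptprb and Adgrf5 were at 0 in every library, and 25.5 to 274 CPM in OHC pools, none of the 9 being at 0. Supporting cell markers (2 of 10 tested IHC-enriched, none at 0 in either group) summed to 347 to 797 CPM in IHC pools and 174 to 416 CPM in OHC pools. Markers of the greater epithelial ridge (1 of 4 tested IHC-enriched, none at 0) summed to 707 to 1610 CPM and 147 to 598 CPM. Markers of spiral ganglion neurons (1 of 2 tested IHC-enriched, 1 of 6 at 0 in OHCs) summed to 35.1 to 108 CPM and 28.9 to 67.9 CPM, those of mesenchyme (0 of 4 tested called, none at 0) to 8.70 to 35.0 CPM and 2.15 to 14.4 CPM, and those of macrophages (0 of 1 tested called, 4 of 7 at 0 in IHCs and 6 in OHCs) to 1.75 to 19.6 CPM and 0.0872 to 5.47 CPM. The sum was highest in IHC1 for each of these 3 lists. Markers of glia (0 of 4 tested called, none at 0) summed to 20.9 to 75.4 CPM and 7.91 to 44.9 CPM, and those of erythroid cells (none tested, 4 of 5 at 0 in IHCs and 2 in OHCs) to at most 0.0613 CPM and 3.20 CPM. The part of these cells in the results below was not tested. In pools of cells, fewer cells of a type and less RNA per cell cannot be told apart.

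Of the 46 members, 26 had enough counts to be tested and 6 of them passed an adjusted p of 0.05, 3 as OHC-enriched (Thrb, Rora, Nr4a3) and 3 as IHC-enriched (Rorb, Nr1d1, Esr2). The background over all 13269 tested genes was 6.26% called, 3.81% as IHC-enriched and 2.44% as OHC-enriched, against 23.1% of the tested members. Unadjusted p was under 0.05 for 9 of the 26, where the background was 21.8%. In 3 tested members the groups did not overlap, 1 higher in IHCs (Rorb; background 2.37%) and 2 higher in OHCs (Thrb, Nr4a3; background 2.22%), against a background of 4.6% in either direction. Nr4a3 had enough counts to be tested only through its OHC libraries (196 to 642 counts, against 0 to 86 in IHC libraries). The direction of the fitted change was balanced, with 13 members lower and 13 higher in OHCs. The median log2 fold change (OHC over IHC) was -0.01, beside -0.04 over all tested genes. Without IHC1, the IHC-enriched members fell to 1 (Rorb) and the OHC-enriched to 2 (Thrb, Rora). Over all genes, 511 were IHC-enriched and 402 OHC-enriched in that fit, against 506 and 324 with every library kept.

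**Figure D1:**
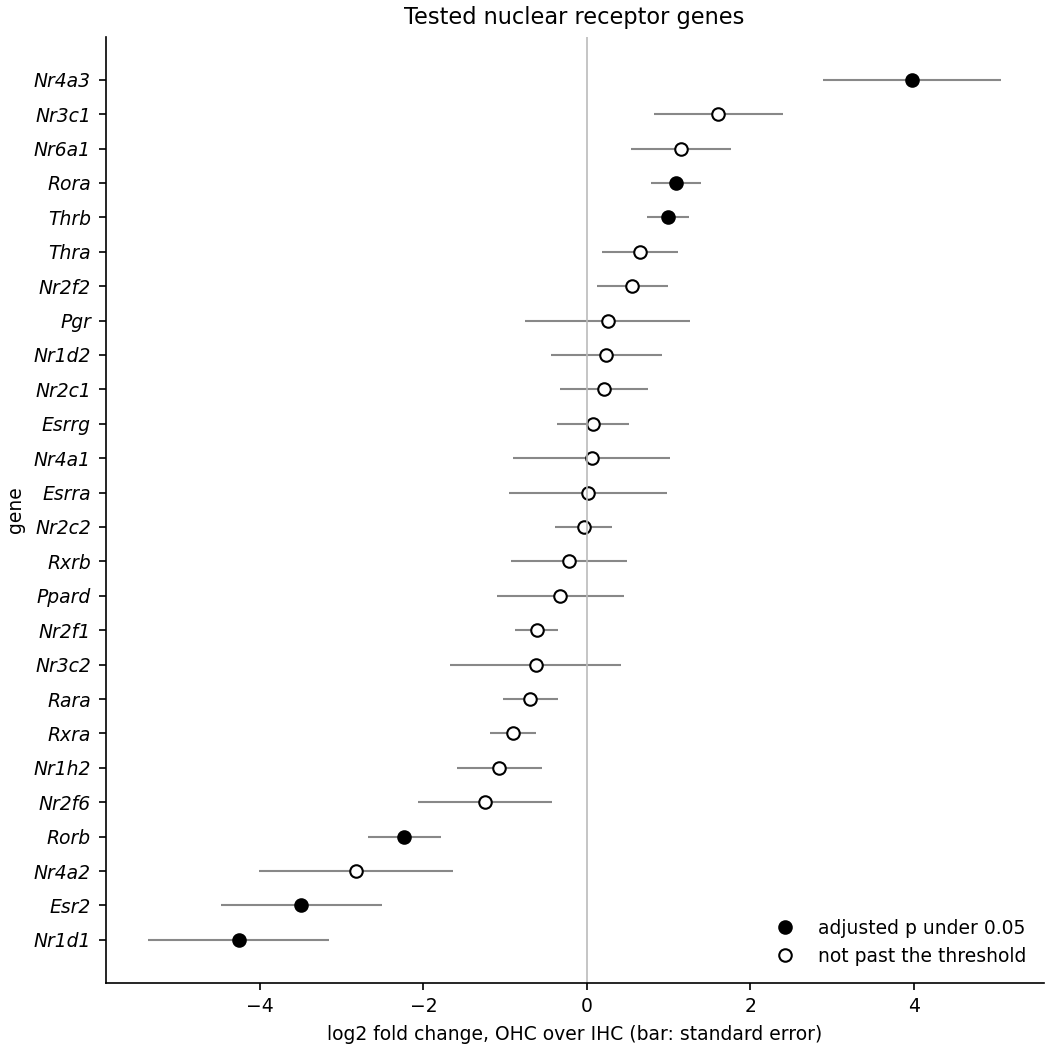
Log2 fold change of OHC over IHC (horizontal axis) for each of the 26 tested nuclear receptor genes (vertical axis), with bars for the standard error from the edgeR fit over 12 libraries; filled points passed an adjusted p of 0.05. The 6 filled points range from -4.26 for Nr1d1 to 3.98 for Nr4a3, and open points such as Nr4a2 and Nr3c1 have wide bars.

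The thyroid hormone receptors were led by Thrb, which encodes the receptor known to be needed for hearing (ENSMUSG00000021779, chr14:4429815-4809435, minus strand). Thrb stood at 48.2, 113, 138, 108, 184 and 160 CPM in IHC1 to IHC6 and at 264, 263, 303, 247, 217 and 203 CPM in OHC1 to OHC6. All OHC values exceeded all IHC values. Thrb was OHC-enriched with a log2 fold change of 0.995 (SE 0.26, adjusted p = 0.0235), a 1.99-fold difference. Without IHC1, its lowest library, the log2 fold change was 0.82 with an adjusted p of 0.0138, and the call was lost without OHC2 (adjusted p = 0.0502) or without OHC3 (adjusted p = 0.0567). OHC3, the highest library for Thrb, also had the highest summed level of endothelial markers. The part of endothelial cells in the Thrb level was not tested.

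Thra, which encodes the other thyroid hormone receptor, lay at 8.56 to 44.1 CPM in IHCs (median 12.6) and 13.6 to 46.7 CPM in OHCs (median 31.7). The groups overlapped, and the log2 fold change of 0.65 (SE 0.47) did not pass the test (adjusted p = 0.448). Per length of exon, Thrb made up 83.3% to 93.8% of the family in IHC2 to IHC6, 48.5% in IHC1, and 83.0% to 94.0% in OHC libraries. Thra shares 1694 bases, 21.4% of its exonic length, with Nr1d1 on the opposite strand, and whether reads were counted by strand is not stated.

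None of the 5 tested genes for thyroid hormone handling passed the edgeR test (2 at unadjusted p under 0.05, and Slc16a10 alone by DESeq2). Slc7a5, an amino acid transporter that also carries thyroid hormone, had the highest level, with a median of 98.1 TPM (reads per length of exon relative to the library) in IHCs and 51.2 TPM in OHCs (log2 fold change -0.985, adjusted p = 0.142). Of 4 tested genes known as targets of these receptors, 1 was OHC-enriched and 1 IHC-enriched, where 6.26% of all tested genes were called. Slc26a5, which encodes the OHC motor protein prestin, lay at 0 to 1.84 CPM in IHCs and 2.84 to 17.7 CPM in OHCs (log2 fold change 4.66, SE 1.22, adjusted p = 0.0253), and missed the threshold without OHC1, OHC5 or OHC6 (adjusted p at most 0.0517). Kcnma1, the BK potassium channel of mature IHCs, lay at 23.9 to 128 CPM in IHCs and 0.866 to 24.4 CPM in OHCs (log2 fold change -2.92, SE 0.67, adjusted p = 0.0123).

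**Figure D2:**
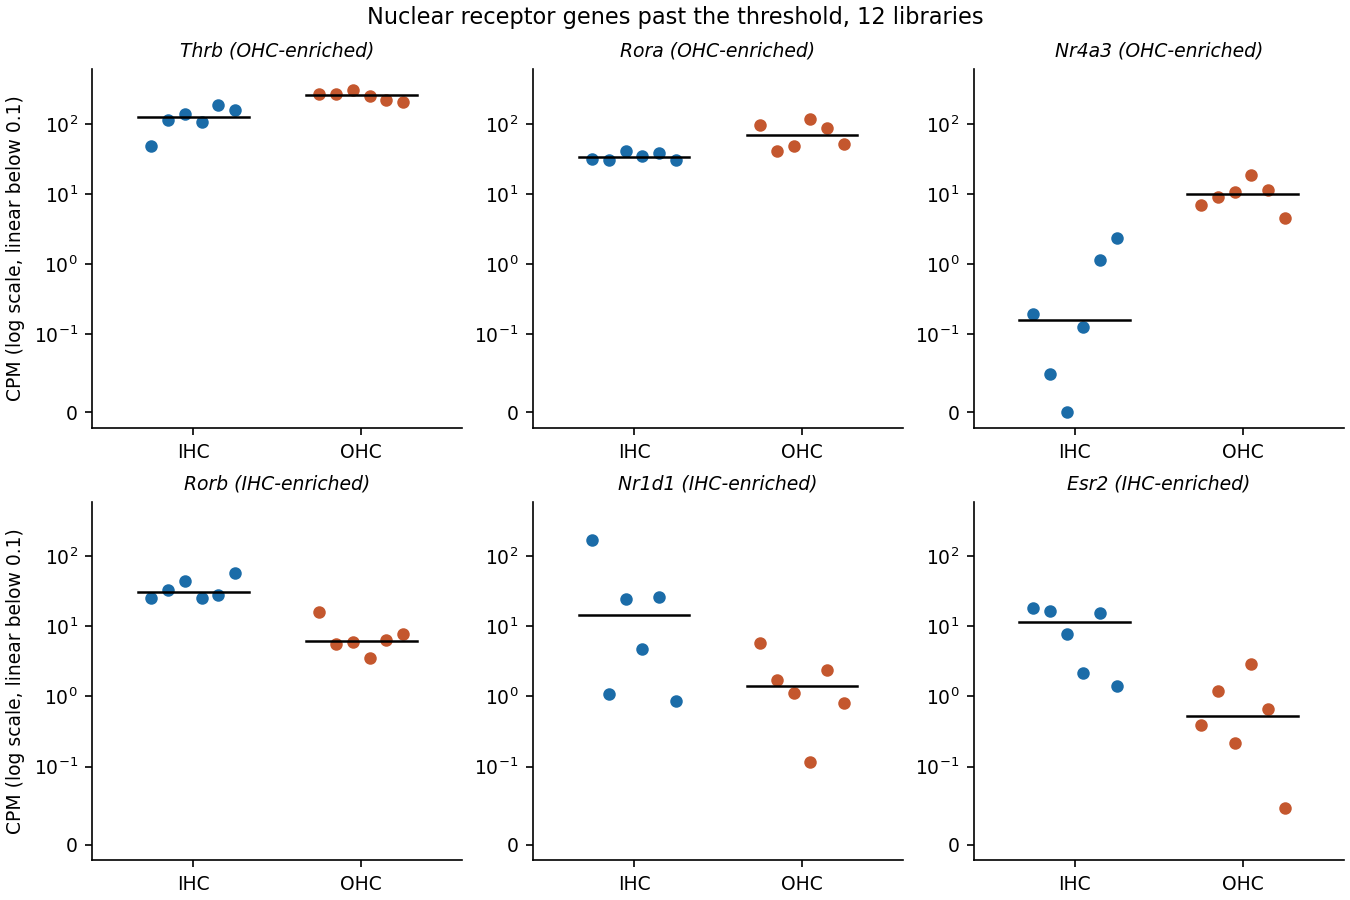
Level in CPM (log scale above 0.1 and linear below) of the 6 nuclear receptor genes past the threshold, with 1 point per library (IHC blue, OHC orange, 6 each) and a line at the group median. Thrb, Nr4a3 and Rorb are separated between groups, Rora overlaps by a single pair of libraries, and in Nr1d1 IHC1 stands at 171 CPM.

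The RORs, orphan receptors that bind the same elements as the REV-ERBs, moved in opposite directions. Rorb (ENSMUSG00000036192, chr19:18907969-19088585, minus strand), known for its role in retina and cortex, stood at 25.3, 32.9, 44.4, 25.2, 28.1 and 58.1 CPM in IHC1 to IHC6 and at 16.2, 5.67, 5.92, 3.49, 6.41 and 7.73 CPM in OHC1 to OHC6. All IHC values exceeded all OHC values. Rorb was IHC-enriched with a log2 fold change of -2.23 (SE 0.45, adjusted p = 0.0042), a 4.71-fold difference, and it passed the test in each of the 12 fits that left out 1 library.

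Rora (ENSMUSG00000032238, chr9:68561068-69295528, plus strand), known for its role in cerebellar development, stood at 32.0, 30.0, 41.5, 35.4, 38.5 and 30.8 CPM in IHC1 to IHC6 and at 95.9, 41.4, 47.6, 119, 88.6 and 51.3 CPM in OHC1 to OHC6. The groups overlapped by IHC3 and OHC2 alone. Rora was OHC-enriched with a log2 fold change of 1.09 (SE 0.30, adjusted p = 0.0349). This call was lost without IHC2, IHC4, IHC5, IHC6, OHC1, OHC4 or OHC5 (adjusted p of 0.0512 to 0.107, the highest without OHC4).

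Per length, Rora made up 29.0% to 51.9% of the sum of Rora and Rorb in IHC libraries and 81.9% to 96.3% in OHC libraries, so the ranges did not overlap. The summed level of both was 13 TPM in IHCs and 14 TPM in OHCs (medians, ranges 3.9 to 27.7 and 10.3 to 30.4 TPM).

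The REV-ERB genes encode haem-binding repressors of the circadian clock. Nr1d1 (ENSMUSG00000020889, chr11:98658752-98666188, minus strand) stood at 171, 1.10, 24.6, 4.69, 26.2 and 0.872 CPM in IHC1 to IHC6 and at 5.73, 1.74, 1.11, 0.116, 2.40 and 0.796 CPM in OHC1 to OHC6. IHC1, IHC3 and IHC5 exceeded the highest OHC value, while IHC2, IHC4 and IHC6 lay within the OHC range. Nr1d1 was IHC-enriched with a log2 fold change of -4.26 (SE 1.11, adjusted p = 0.0245). Without IHC1 the log2 fold change was -2.55 and the adjusted p 0.149, and the call was also lost without OHC2, OHC3, OHC5 or OHC6 (adjusted p of 0.0511 to 0.06). Of the exonic length of Nr1d1, 52.3% lies opposite exons of Thra.

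Nr1d2, the other REV-ERB gene, lay at 2.02 to 15.8 CPM in IHCs and 2.15 to 17.4 CPM in OHCs (log2 fold change 0.24, SE 0.68, adjusted p = 0.876). The share of Nr1d1 in this family ran from 16.2% to 99.5% among IHC libraries, a wider range than the 13.1% to 48.3% among OHC libraries. None of 11 tested clock genes passed the edgeR test (3 at unadjusted p under 0.05, and Per1 alone by DESeq2), with 3 lower and 8 higher in OHCs by their fitted change. Per1, a repressor of the clock, had the highest level, with medians of 68.8 CPM in IHCs and 34.9 CPM in OHCs (log2 fold change -0.85, adjusted p = 0.118).

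**Figure D3:**
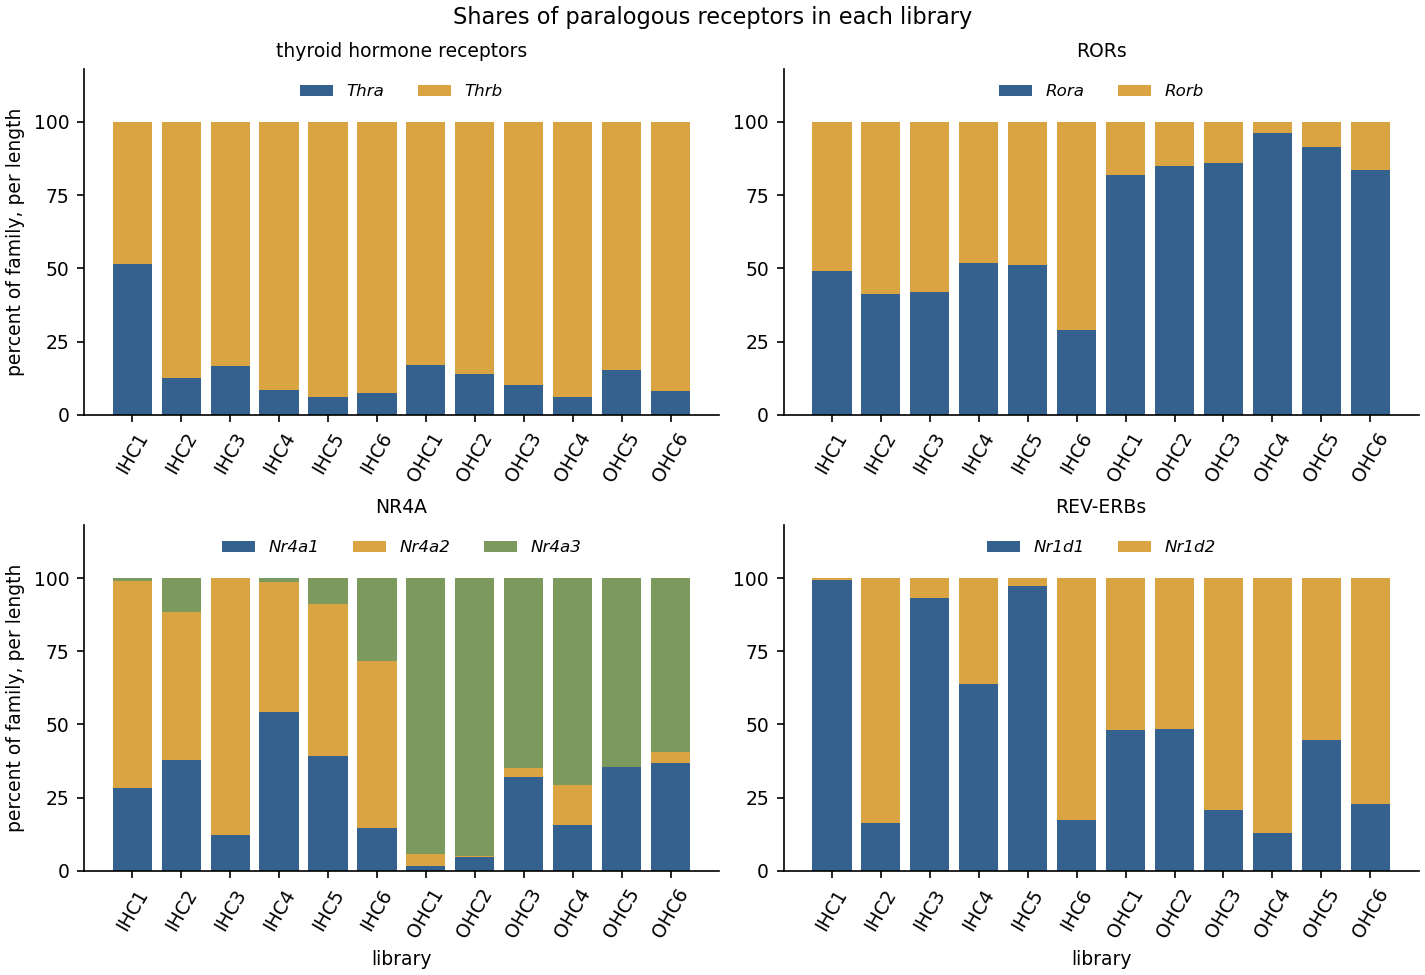
Share of each paralogue in its family per length of exon (vertical axis, percent), for 4 families in each of the 12 libraries (horizontal axis). Rora takes 29.0% to 51.9% in IHC and 81.9% to 96.3% in OHC libraries, Nr4a3 at most 28.4% in IHC and at least 59.6% in OHC libraries, and the Thrb share of IHC1 is 48.5%.

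The NR4A receptors act without a known physiological ligand and are induced quickly by many stimuli. Nr4a3 (ENSMUSG00000028341, chr4:48045153-48086447, plus strand) stood at 0.196, 0.0489, 0, 0.126, 1.16 and 2.34 CPM in IHC1 to IHC6 and at 6.88, 9.09, 10.9, 18.7, 11.5 and 4.59 CPM in OHC1 to OHC6. The lowest OHC value exceeded the highest IHC value, and the largest count in an IHC library was 86. Nr4a3 was OHC-enriched with a log2 fold change of 3.98 (SE 1.09, adjusted p = 0.0331). The call was lost without IHC1, IHC4, OHC1, OHC2, OHC3, OHC4 or OHC5 (adjusted p of 0.0501 to 0.0735), while the log2 fold change stayed between 3.70 and 5.04. The endothelial signal, taken as the summed level of the endothelial markers, was 75.2, 25.5, 274, 86.8, 37.3 and 72.2 CPM in OHC1 to OHC6. Its part in the Nr4a3 level was not tested.

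Nr4a2, which encodes NURR1, a receptor known for dopamine neurons, lay the other way, at 0.293 to 20.9 CPM in IHCs (median 6.38) and 0 to 4.97 CPM in OHCs (median 0.40). Its log2 fold change of -2.82 (SE 1.19) did not pass the test (adjusted p = 0.168), although it passed without OHC4, the highest OHC library (log2 fold change -4.59, adjusted p = 0.0387). Nr4a1, which encodes NUR77, lay at 0.293 to 11.1 CPM in IHCs and 0.216 to 11.6 CPM in OHCs (log2 fold change 0.06, SE 0.96, adjusted p = 0.982). Per length, Nr4a2 made up 44.6% to 87.7% of the family in IHC libraries and 0% to 13.7% in OHC libraries, and Nr4a3 0% to 28.4% and 59.6% to 94.8%. The summed level of the family was 3.9 TPM in IHCs and 5.7 TPM in OHCs (medians, ranges 0.15 to 5.6 and 3.6 to 13.6 TPM). Nr4a1 and Nr4a2 each fell to 12 counts in an IHC library, so shares at that depth rest on few reads.

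Of 14 tested immediate early genes, which respond to the same kinds of stimulus as the NR4A genes, 1 was IHC-enriched and 1 OHC-enriched. That was 14.3% called, beside 6.26% of all tested genes. Junb lay at 1.57 to 158 CPM in IHCs, with IHC1 highest, and 0.367 to 4.72 CPM in OHCs (log2 fold change -4.47, SE 1.14, adjusted p = 0.0222). Without IHC1 the log2 fold change of Junb was -1.70 (adjusted p = 0.346), and its call was also lost without OHC1, OHC2, OHC4, OHC5 or OHC6. Egr2 lay at 0.392 to 6.85 CPM in IHCs and 6.97 to 32.2 CPM in OHCs, without overlap (log2 fold change 2.78, SE 0.70, adjusted p = 0.0206; 0.0518 without OHC2). Egr1, with the highest level of the list, had medians of 239 and 332 CPM (adjusted p = 0.182), and Fos had medians of 12.9 and 22.1 CPM (adjusted p = 0.861).

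Among the estrogen receptors, Esr2, which encodes estrogen receptor beta (ENSMUSG00000021055, chr12:76167193-76224033, minus strand), was IHC-enriched. It stood at 18.2, 16.4, 7.64, 2.14, 15.6 and 1.39 CPM in IHC1 to IHC6 and at 0.388, 1.19, 0.217, 2.94, 0.667 and 0.0468 CPM in OHC1 to OHC6. The 4 highest values came from IHC libraries, and the overlap came from IHC4 and IHC6 with OHC4. The log2 fold change was -3.49 (SE 0.99, adjusted p = 0.0386). The call was lost without IHC1, IHC2, IHC5, OHC1, OHC2, OHC3, OHC5 or OHC6 (adjusted p of 0.0637 to 0.0789), and the log2 fold change stayed between -4.36 and -3.24. Esr1, which encodes estrogen receptor alpha, had at most 1 count in any library.

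The estrogen-related receptors bind similar elements without estrogen and regulate genes of energy metabolism. Esrrg was the most abundant of them, at 11.4 to 46.6 CPM in IHCs (median 23.1) and 9.07 to 48.2 CPM in OHCs (median 23.03). The fitted log2 fold change was 0.08 (SE 0.44, adjusted p = 0.942). Esrra lay at 1.44 to 9.80 CPM in IHCs and 0.183 to 14.7 CPM in OHCs, the highest in OHC5 (log2 fold change 0.01, SE 0.97, adjusted p = 0.996), and 29.6% of its exonic length lies opposite Trmt112. Esrrb (ENSMUSG00000021255, chr12:86407887-86568409, plus strand), known as a deafness gene, was below the filter on low counts. It stood at 0, 1.39, 0.0523, 1.21, 0.0306 and 0 CPM in IHC1 to IHC6 and at 0.0216, 0.915, 0.0543, 0.116, 0.0667 and 1.33 CPM in OHC1 to OHC6. Its largest count was 57, in IHC2 and again in OHC6. Where no filter was applied, its log2 fold change was -0.11 with an adjusted p of 0.976. None of 6 tested ERR target genes passed the edgeR test (3 with unadjusted p under 0.05, and Perm1 alone by DESeq2). All 6 had fitted changes above 0, with a median log2 fold change of 0.51 beside -0.04 over all tested genes. Atp5f1b, the beta subunit of ATP synthase, had the highest level, with medians of 948 and 1232 CPM (adjusted p = 0.161).

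The steroid receptors were low. Nr3c1, which encodes the glucocorticoid receptor, lay at 0.613 to 7.71 CPM in IHCs (median 2.02) and 3.30 to 25.7 CPM in OHCs (median 7.21). Its log2 fold change of 1.61 (SE 0.78) did not pass (adjusted p = 0.239), and its highest library, OHC3, was also the library with the most endothelial signal. Without OHC3 the log2 fold change was 1.08 (adjusted p = 0.506). The part of endothelial cells in the Nr3c1 level was not tested, and other members were highest elsewhere, Rora and Nr4a3 in OHC4 and Nr2f2 in OHC2. Nr3c2, which encodes the mineralocorticoid receptor, stood at 0.378 to 10.1 CPM in IHCs and 0.234 to 4.12 CPM in OHCs (adjusted p = 0.769). Pgr stood at 0.131 to 5.83 CPM and 0.145 to 5.60 CPM (adjusted p = 0.913). Of the steroid handling and chaperone genes, 0 of 7 passed, and of the glucocorticoid receptor targets 0 of 6 (unadjusted p under 0.05 in 2 and 1, edgeR quasi-likelihood test). By DESeq2, Per1 alone passed of both lists. The chaperone gene Hsp90ab1 had medians of 1436 and 1667 CPM (adjusted p = 0.915), and Per1 led the glucocorticoid targets in level.

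Among receptors for retinoids, Rara and Rxra were the predominant members. Rara, which encodes retinoic acid receptor alpha, had the highest mean level per length of all members. It stood at 857, 167, 272, 164, 251 and 363 CPM in IHC1 to IHC6 and at 277, 199, 150, 281, 194 and 183 CPM in OHC1 to OHC6, with overlap. The log2 fold change was -0.69 (SE 0.33, adjusted p = 0.235) and did not pass the test, and without IHC1 it was -0.20. Rara made up at least 95.4% of its family per length in every library. Rarb and Rarg had at most 63 and 220 counts in any library and were not tested, and 31.2% of the exonic length of Rarb lies opposite the abundant gene Top2b.

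Rxra, the partner of many other members, stood at 374, 166, 193, 131, 125 and 141 CPM in IHC1 to IHC6 and at 76.0, 83.5, 86.4, 149, 87.5 and 122 CPM in OHC1 to OHC6. OHC4 alone reached into the IHC range. Its log2 fold change of -0.90 (SE 0.28) missed the threshold (adjusted p = 0.0599), and without IHC1 it was -0.60 (adjusted p = 0.115). It passed without IHC4, without IHC5 or without OHC4 (adjusted p of 0.0453 to 0.0477), by DESeq2 (adjusted p = 0.0384), by the edgeR exact test (adjusted p = 0.0385) and where no filter was applied (adjusted p = 0.0453). Rxrb lay at 3.86 to 36.4 CPM in IHCs and 2.65 to 25.5 CPM in OHCs (log2 fold change -0.22, SE 0.71, adjusted p = 0.891). Rxrg had at most 50 counts.

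None of 7 tested genes for retinoid handling passed the edgeR quasi-likelihood test (2 with unadjusted p under 0.05, and Cyp26b1 alone by DESeq2 or the edgeR exact test). Stra6, the retinol uptake receptor, had the highest level, with medians of 95.5 and 60.04 CPM (adjusted p = 0.326). Cyp26b1, an enzyme that breaks down retinoic acid, had medians of 48.6 and 20.7 CPM (log2 fold change -1.32, adjusted p = 0.073).

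The COUP-TFs are orphan receptors that act mostly as repressors in development. Nr2f1, which encodes COUP-TFI (ENSMUSG00000069171, chr13:78337092-78348578, minus strand), stood at 169, 86.0, 65.2, 82.6, 86.0 and 80.1 CPM in IHC1 to IHC6 and at 60.1, 52.2, 59.6, 52.5, 84.8 and 62.0 CPM in OHC1 to OHC6. Of the OHC libraries, 5 lay below every IHC library, and OHC5 lay within the IHC range. The log2 fold change of -0.62 (SE 0.26) did not pass the test (adjusted p = 0.172), and without IHC1 it was -0.38 (adjusted p = 0.354). Antisense overlap with A830082K12Rik covers 17.5% of its exonic length. Nr2f2, which encodes COUP-TFII, lay at 6.70 to 28.5 CPM in IHCs and 12.9 to 42.7 CPM in OHCs (log2 fold change 0.55, SE 0.43, adjusted p = 0.488). Nr2f6 lay at 0.572 to 17.5 CPM and 0.734 to 7.62 CPM (log2 fold change -1.25, SE 0.82, adjusted p = 0.397), with 57.1% of its exonic length opposite Ocel1.

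Per length, Nr2f1 took 75.1% to 88.6% of the COUP-TF family in IHC libraries and 59.5% to 84.5% in OHC libraries. The summed level of the family was 42.4 TPM in both cell types (medians). Nr2c2, which encodes the orphan receptor TR4, stood at 24.7 to 167 CPM in IHCs (median 80.2) and 54.5 to 144 CPM in OHCs (median 75.01), a log2 fold change of -0.04 (SE 0.35, adjusted p = 0.961). Mrps25 lies opposite 40.4% of its exonic length. Nr2c1, which encodes TR2, had medians of 11.7 and 14.3 CPM (log2 fold change 0.21, SE 0.54, adjusted p = 0.857).

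Among the lipid sensors, Nr1h2, which encodes the oxysterol receptor LXR beta, stood at 8.79 to 45.9 CPM in IHCs (median 21.7) and 6.83 to 21.1 CPM in OHCs (median 9.80). The fitted log2 fold change of -1.07 (SE 0.52) did not pass (adjusted p = 0.234). Of 7 tested LXR targets, 2 were OHC-enriched and none IHC-enriched (28.6% called, beside 6.26% of all tested genes). The part of the LXRs in these levels was not tested. Abcg1, a cholesterol exporter, lay at 14.6 to 68.5 CPM in IHCs and 54.2 to 137 CPM in OHCs (log2 fold change 1.5, SE 0.35, adjusted p = 0.0131). Scd2, a fatty acid desaturase, lay at 286 to 662 CPM and 585 to 801 CPM (log2 fold change 0.67, SE 0.20, adjusted p = 0.0498), and passed in 1 of the 12 fits with a library left out, the one without IHC1.

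The PPARs are receptors for fatty acids and their derivatives. Ppara (ENSMUSG00000022383, chr15:85618656-85687067, plus strand), a regulator of fatty acid oxidation, was below the filter. It had 0 counts in all 6 IHC libraries, and 427, 473, 14, 5, 16 and 7 counts in OHC1 to OHC6. OHC1 and OHC2 thus held nearly all of its reads. Against a floor of 3 counts per IHC library, its mean CPM in OHCs was at least 41.6-fold higher, and at least 21.0-fold higher without OHC2. The latter bound still rests on OHC1, and none was computed without both. Ppara stood at 0.380, 0.145, 0.534 and 0.164 CPM in OHC3 to OHC6. It passed where no filter was applied (adjusted p = 0.00249; 6.59% of the 27488 genes were called in that fit), and 27.4% of its exonic length lies opposite Cdpf1. Ppard lay at 1.64 to 47.3 CPM in IHCs and 4.82 to 39.5 CPM in OHCs (log2 fold change -0.32, SE 0.77, adjusted p = 0.847), and Pparg had at most 11 counts. None of 6 tested PPAR targets passed the edgeR test (2 with unadjusted p under 0.05, and Acadl alone by DESeq2).

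Nr6a1, which encodes the germ cell nuclear factor, stood at 1.93 to 23.98 CPM in IHCs (median 8.76) and 4.27 to 55.6 CPM in OHCs (median 20.6), and did not pass (log2 fold change 1.15, SE 0.62, adjusted p = 0.286). The NR5A genes encode orphan receptors of steroid-producing tissues and were not tested. Nr5a2 had no more than 1 count in an IHC library, 640 counts in OHC3 and at most 18 in the other OHC libraries. OHC3 was the library with the most endothelial signal, and the part of endothelial cells in the Nr5a2 counts was not tested. Nr5a1 had no more than 2 counts in an IHC library, 175 in OHC4, 56 in OHC5 and at most 7 in the others. The remaining members were near or at 0. Nr1h4 (the bile acid receptor FXR), Nr1i3 (the xenobiotic receptor CAR) and Hnf4a had at most 13, 9 and 4 counts. There were 9 members with at most 3 counts in every library, namely Vdr, Nr1h3, Nr2e1, Nr2e3 and Esr1, and also Nr1i2, Hnf4g, Nr0b1 and Nr0b2, which were at 0 in all 12.

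**Figure D4:**
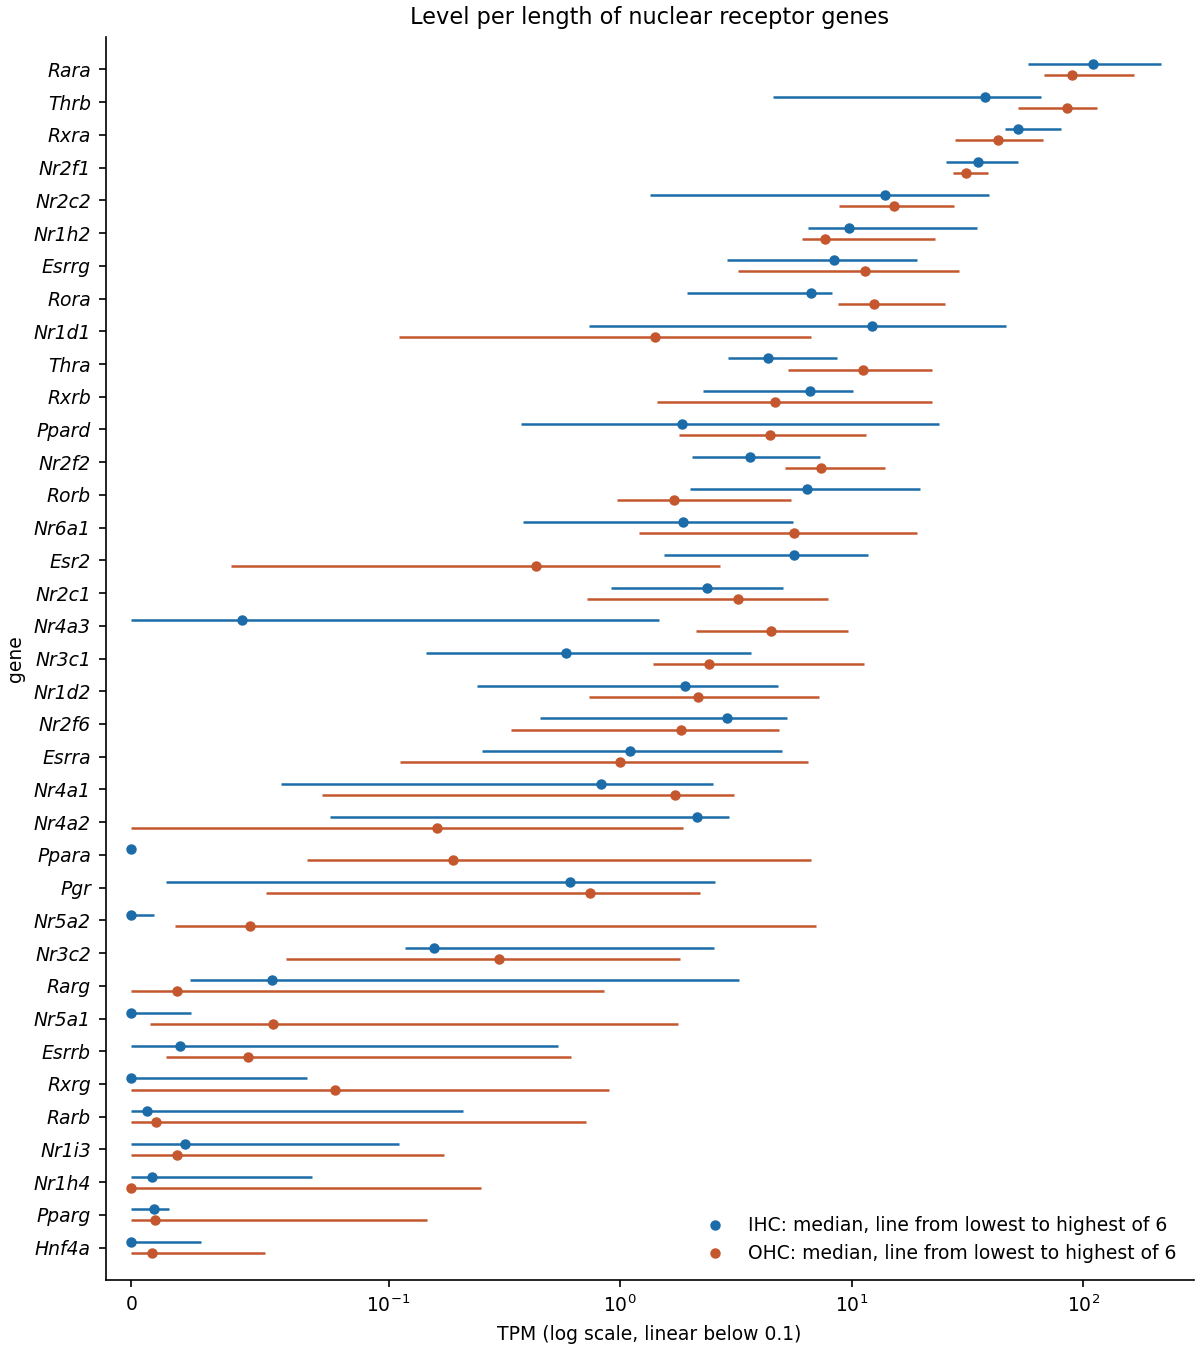
Level per length (TPM, log scale above 0.1 and linear below) of the 37 nuclear receptor genes with more than 3 counts in some library, with a point at the median of 6 libraries and a line from the lowest to the highest (IHC blue, OHC orange). Rara, Thrb, Rxra and Nr2f1 lie at the top, with IHC medians of 110, 37.5, 52.1 and 35.0 TPM.

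Ordered by mean level per length, Rara (medians of 110 TPM in IHCs and 89.8 TPM in OHCs), Thrb (37.5 and 85.2 TPM), Rxra (52.1 and 42.6 TPM) and Nr2f1 (35.0 and 31.0 TPM) came first. Nr2c2 (13.9 and 15.3 TPM), Nr1h2 (9.74 and 7.67 TPM), Esrrg (8.36 and 11.4 TPM) and Rora (6.69 and 12.4 TPM) followed. The ranges over libraries of neighbours in this order overlapped in both cell types, those of Nr2f1 (27.5 to 39.0 TPM) and Nr2c2 (8.80 to 27.8 TPM) in OHCs by the least. A median of at least 1 TPM was reached by 21 members in IHCs and by 21 in OHCs. The summed level of all 46 members was 239 to 592 TPM in IHCs (median 329) and 270 to 562 TPM in OHCs (median 393), with overlap.

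Several members lie side by side in the genome. Thra, Nr1d1 and Rara occupy a stretch of chromosome 11 (chr11:98629109-98865768, 237 kb), and their paralogues Nr1d2, Thrb and Rarb one of chromosome 14 (chr14:4230545-6041094, 1811 kb). Of the first group only Nr1d1 passed the test, as IHC-enriched, and of the second only Thrb, as OHC-enriched, while Nr1d2 lies next to Thrb and had a log2 fold change of 0.24 that did not pass. Nr5a1 and Nr6a1 lie within 236 kb of chromosome 2 (chr2:38581468-38817700).

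The cofactors that nuclear receptors recruit were expressed in both cell types. Of 12 tested coactivator genes, 1 was called (8.33%, beside 6.26% of all tested genes). Crebbp, a histone acetyltransferase, was IHC-enriched, at 316 to 789 CPM in IHCs and 229 to 334 CPM in OHCs (log2 fold change -0.81, SE 0.21, adjusted p = 0.0265). This call was lost without OHC1, OHC2 or OHC6. Without IHC1 the log2 fold change of Crebbp was -0.63 (adjusted p = 0.0348). Of the other coactivators, Ncoa6 had medians of 318 and 196 CPM (log2 fold change -0.65, adjusted p = 0.089) and Ncoa1 215 and 143 CPM (log2 fold change -0.61, adjusted p = 0.148). By their fitted change, 9 of the 12 were lower in OHCs (median log2 fold change -0.35, beside -0.04 over all tested genes). None of 9 tested corepressor genes passed the test by edgeR or DESeq2, and none had an unadjusted p under 0.05. Tbl1x, a subunit of the NCoR complex, led in level, with medians of 249 and 202 CPM (adjusted p = 0.898).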

How the data were processed

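RNA-seq counts of 6 IHC and 6 OHC libraries were analysed, with groups and replicate numbers taken from the sample labels. The deposited values are raw read counts for each gene, made by the authors through STAR alignment to GRCm39 and HTSeq counting in its intersection-nonempty mode; the labels also name Trimmomatic, and tool versions and the strand setting are not given in the sources used here. Libraries were made by ribosomal RNA depletion, random priming and amplification at 2 sites, which the labels do not assign to samples, so site and cell type cannot be told apart. The 5 HTSeq summary lines were left out, and held 24.2% to 46.1% of the counts in a file.

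Counts were tested in R 4.3.3 with edgeR 4.0.16: filterByExpr (minimum count 10, minimum total 15), TMM normalization, and the quasi-likelihood test of OHC against IHC over all 13269 genes kept, with Benjamini-Hochberg adjustment and a threshold of 0.05. The standard error is the absolute log2 fold change divided by the square root of the F statistic. CPM uses library sizes scaled by TMM and no pseudocount, and TPM, computed here, uses the union of exons in GENCODE vM39, which holds 54749 of the 55416 genes. The TMM factor of IHC1 was 0.486 and the others were 0.902 to 1.23, and TPM carries no such factor. Alternatives were DESeq2 1.42.0, the edgeR exact test, RLE factors, other filters, a replicate block, the 20 most abundant genes left out, and each library left out in turn. Tested on simulated data for this comparison, with 200 of 13269 genes changed 4-fold, the fit recovered 37% with 1 false call. Genes given by library, or by lowest, median and highest value, with full statistics are those past the threshold, Thrb, Esrrb and Nr2f1, those with an unadjusted p under 0.05, and the 6 with the highest level per length. In the cofactor, handling and target lists, genes past the threshold and those highest in level are named, with some others chosen after their values were seen and some items not reported here. The members and lists were chosen with earlier results of these data known. Sequences were read from GENCODE vM39 transcripts; protein sequences were not used here.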

Additional observations from a re-analysis of the deposited data

Results flagged for a closer look

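Each cell type's 6 libraries were examined for a highest or lowest library whose gap to its nearest neighbour is a larger share of the whole range than Dixon's 95% critical value, in 68 groups of values, and 16 stood out. For normally distributed values chance gives about 1 in 20. CPM and shares were used untransformed, so that rate may not apply here. No explanation was tested. IHC1, the library with the most ribosomal RNA, gave 5 of them. Its Rara level was 857 CPM (next 363), its Nr1d1 level 171 CPM (next 26.2) and its Rxra level 374 CPM (next 193). Its Nr2f1 level was 169 CPM (next 86.0), and its Thrb share of the thyroid hormone receptors was 48.5% (next 83.3%). These CPM values depend on the TMM factor of IHC1, 0.486, which TPM does not carry. In TPM, IHC1 was the lowest IHC library for Nr2f1 (25.5 TPM) and not the highest for Rara or Rxra. For Nr1d1 it was the highest there too (46.2 TPM). OHC5 was highest for Ppard at 39.5 CPM (next 15.8), Nr2f1 at 84.8 CPM (next 62.0) and Esrra at 14.7 CPM (next 2.18), and its Esrrg share of the estrogen-related receptors was lowest at 33.1% (next 89.4%). OHC1 was highest for Rorb at 16.2 CPM (next 7.73) and Nr6a1 at 55.6 CPM (next 23.4). Single libraries also stood out for Esrra in IHC5 at 9.80 CPM (next 4.27), Nr3c2 in IHC2 at 10.1 CPM (next 1.44) and Nr4a2 in OHC4 at 4.97 CPM (next 0.733). The Rara share of the retinoic acid receptors was lowest in IHC4 at 95.4% and in OHC3 at 98.1%.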

How the results depend on the processing

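Rorb kept its call under every alternative listed here. Thrb, Rora, Nr4a3, Nr1d1 and Esr2 kept their direction throughout, while their calls depended on single libraries as given above. Counts of all genes were 506 IHC-enriched and 324 OHC-enriched (6.26% of 13269), and 749 and 517 with the exact test. With DESeq2 they were 1339 and 1590, or 17.4% of 16869 genes. With no filter they were 893 and 918, or 6.59% of 27488 genes. Members were 5 and 5 with DESeq2 (Rxra, Nr4a2, Ppara and Nr5a1 added) and 4 and 3 with the exact test (Rxra added). Where no filter was applied, 4 and 5 members were called (Rxra, Ppara and Nr5a2 added). As given above, most reads of Nr5a2 lay in OHC3, those of Nr5a1 in OHC4 and OHC5, and those of Ppara in OHC1 and OHC2. With at least 10 counts in every library, 1 IHC-enriched and 2 OHC-enriched members were left, because Nr1d1 and Esr2, and Nr4a3, were not tested there. All-gene counts in that fit were 464 and 221. With 1 library left out, all-gene counts were 369 to 551 and 225 to 402, and member counts 1 to 5 and 1 to 3. Leaving out a library turned the direction of members that did not pass, with log2 fold changes from -0.93 to 0.22 for Ppard, -0.082 to 0.61 for Nr1d2, -0.64 to 0.37 for Rxrb, -0.17 to 0.41 for Nr2c1, -0.26 to 0.25 for Nr2c2, -1.47 to 0.65 for Esrra, -0.17 to 0.30 for Esrrg, -1.26 to 0.98 for Nr3c2, -0.046 to 0.73 for Pgr and -0.26 to 0.35 for Nr4a1. Leaving out the 20 most abundant genes gave -0.0023 for Esrra. With the longest transcript as length, the Esrrg share in IHCs was 78.8%, against 85.6%. The causes of these shifts were not tested.

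Correlations of same-numbered libraries were -0.031 to 0.018 over 6 pairs, and 1 of 12 libraries correlated best with its own number. Values near 0 cannot show that the pools came from separate mice. For its ATAC-seq pools, the paper states that both cell types were taken from each pup. With the number as a replicate block, 512 and 391 genes and 3 and 2 members were called. Rora was lost (log2 fold change 0.99, adjusted p = 0.076), and the direction turned for Ppard (0.62), Nr2c1 (-0.015), Nr2c2 (0.085), Esrra (-0.70) and Nr3c2 (0.14). Esrrb, Rarb and Rarg, with at most 57, 63 and 220 counts in a library, were below the filter on low counts, and whether a difference could be seen at that depth was not tested.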
